A study of Mus musculus with 20 samples.

Results

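The 72 h array of OT-I CD8 T cells given antigen and B7-1 alone was compared with the 4 arrays of the same culture type at 48 h. These 5 arrays, taken by their titles, are 5 of the 20 arrays in the series, and the comparison ran over all 8251 genes that a single-symbol probe set named. A gene was counted as higher or lower at 72 h when its 72 h signal lay outside the range of all 4 arrays at 48 h. With 1 array at 72 h the comparison has no replicate check and no p-value, and the 72 h time cannot be told apart from that single culture, labelling and array.

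All cells were CD44lo CD8+ T cells, negatively enriched from lymph nodes of C57Bl6 mice of 6 to 8 weeks that carry the OT-1 T cell receptor transgene, which recognises an ovalbumin peptide on H-2Kb. The stimulated cells met that complex and the costimulatory protein B7-1 on latex microspheres (Ag-B7, the first and second signals of activation), and every culture received human rIL-2. Ag-B7 alone was sampled at 72 h (1 array) and at 48 h (4 arrays). The other groups used beside it were Ag-B7 with murine rIL-12 at 72 h (1 array) and 48 h (3 arrays), Ag-B7 with IFNa/b, a universal type I interferon, at 72 h (1 array) and 48 h (3 arrays), Ag-B7 at 24 h (1 array), and unstimulated naive cells at 0 h (3 arrays). One 72 h culture with Ag-B7 and TSA (trichostatin A, a histone deacetylase inhibitor) was given for single values. The labels call the replicates biological and do not say whether each came from a separate animal or a pool.

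A naive CD8 T cell that meets antigen with costimulation leaves quiescence, switches on MYC, builds ribosomes and nucleotides, takes up glucose and amino acids, and divides. Naive cells are held in quiescence and kept in recirculation by factors such as KLF2, and they survive on IL-7; activation shuts these genes down. IL-12 or type I interferon gives a further signal, known to add to the effector response that antigen and costimulation start.

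Signals are MAS5 intensities, 1 value per probe set, scaled by the authors to a common trimmed mean. Differences are given on the scale log2(signal + 46.4), 72 h minus the mean of the 4 arrays at 48 h, a scale that understates the change of dim genes. The median signal was 334 at 72 h and 237 to 316 at 48 h. The actin 3'/5' signal ratio, a sign of RNA quality, was 1.11 at 72 h and 1.05 to 1.11 at 48 h, and the geometric mean of the hybridisation spike-ins was 7070 at 72 h and 4829 to 6668 at 48 h. Pairs of 48 h arrays correlated at 0.960 to 0.968 over the 8251 named genes on this log2 scale, and the 72 h array correlated with them at 0.927 to 0.947. The median over all genes of the log2 difference was 0.13, so a gene at 0 was slightly below the typical gene. It was 0.00 after quantile normalization, -0.13 after median centring and -0.18 after scaling to the spike-ins. The CD8 T cell label was checked on identity genes: of 10 on the array, Cd3e, Cd3d, Cd3g, Cd247 and Cd6 were above the 48 h range, Cd8a, Cd8b1, Thy1, Cd5 and Cd2 were inside it, and none was below. In bulk cells, fewer cells of a type and less RNA per cell cannot be told apart.

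At 72 h, 2766 of 8251 genes (33.5%) lay above the 48 h range and 1751 (21.2%) below it, together 54.7%. Most of these were small differences, and 505 of the genes above and 330 of the genes below cleared the nearest 48 h array by less than 0.1 on the log2 scale. The stricter class, outside the range and at least 2-fold from the 48 h mean, held 656 genes above (7.95%) and 411 below (4.98%), together 12.9%. The split of direction depended on the scaling: quantile normalization gave 2240 above and 2254 below, median centring 1686 and 2954, and spike-in scaling 1305 and 2930. Among the genes named below, Ccr7, Lgals3, Cd6, Ctla4, Pdcd1, Aldoc, Hk1, Wdr12, Ppat, Wars, Slc7a11, Il12rb2 and Rsad2 were above the range as deposited and inside it under at least 1 of these scalings, and Gbp2 and Ifi35 were below it as deposited and inside it after quantile normalization. Cd8a, Thy1, Psmb1, Mki67, Chpf and Eomes were inside it as deposited and below it under at least 1, and Id3 and Psmb1 were above it after quantile normalization. Among bright genes outside the range, Cd7, Klrd1, Mxd4 and H2-Oa were farthest above and Srm, Ak4, Bcat1 and Hk2 farthest below.

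**Figure D1:**
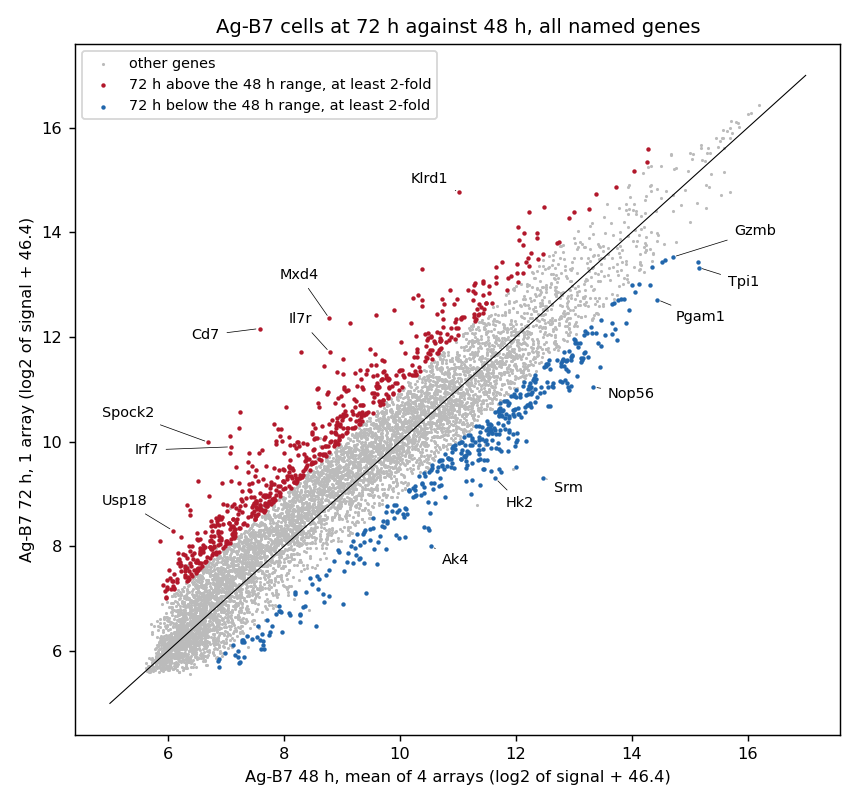
Each point is 1 of the 8251 named genes, with its level at 72 h (1 array) on the vertical axis against the mean of 4 arrays at 48 h on the horizontal axis, both as log2(signal + 46.4). Red marks the 656 genes above the 48 h range and at least 2-fold higher, blue the 411 genes below it and at least 2-fold lower; Cd7, Mxd4 and Klrd1 stand far above the line of equality and Srm far below it.

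The gene with the lowest 72 h level relative to 48 h among bright genes was Srm, spermidine synthase, an enzyme of polyamine synthesis and a known MYC target. Its signal was 591 at 72 h, against 4776, 4597, 5368 and 8600 at 48 h, a log2 difference of -3.16. The 72 h signal was lower than on any of the 3 naive arrays (1364, 1527 and 1041), while the single 24 h array read 15850. Of 32 genes of MYC, polyamine and ribosome biogenesis on the array, 28 were below the 48 h range, 18 of them by at least 2-fold, and 2 (Ppat and Wdr12) were above it. Below, the list is called ribosome biogenesis for short, though it also holds other genes, such as Srm and Nme1. The median of the list was -1.08, and it stayed between -1.11 and -1.40 under the other scalings. Nop56, a core protein of box C/D small nucleolar ribonucleoproteins, read 2069 at 72 h, against 9821, 9589, 8995 and 13395 at 48 h (log2 difference -2.29). Fbl, the methyltransferase of the same particle, read 4920 at 72 h, against 14290, 15858, 15532 and 15572 at 48 h (-1.63). Nhp2, of the box H/ACA particle that guides pseudouridylation, read 3611 at 72 h, against 12586, 11888, 8967 and 11946 at 48 h (-1.63). For all 4 genes the 72 h array lay well under every 48 h array. That it lay below the range at all follows from the rule that named them. Gnl3 (nucleostemin, a nucleolar GTP-binding protein) also read far lower, 638 at 72 h against 2590 to 5008 at 48 h. Myc itself was not outside the range: it read 2109 at 72 h, against 1606, 3227, 2553 and 6366 at 48 h.

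Mxd4, which the list does not hold, is a MAX partner that opposes MYC at its binding sites. Its signal was 5193 at 72 h, against 775, 617, 264 and 177 at 48 h, a log2 difference of 3.57, and it read 3668, 1919 and 3787 in naive cells and 78.8 at 24 h. The 72 h level was thus above every 48 h array and also above every naive array.

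The E-box CACGTG, the sequence MYC and MAX bind, was searched on the upstream and first transcribed bases of each gene (300 bases, RefSeq windows on GRCm38.p6; the motif reads the same on both strands). It was found for 7 of 23 genes of the MYC, polyamine and ribosome biogenesis list below the range with a window (30.4%). The motif was found for 8 of 26 of the list with a window whatever their side (30.8%), and for 753 of 6576 named genes (11.5%). The 23 genes make up most of the 26, so these 2 shares could hardly differ and do not show whether the motif goes with the lower level. Members below the range with the motif before the start were ranked by their log2 difference, with genes of a left-out chromosome not considered. The lowest were Nop2 (a ribosomal RNA methyltransferase) and Nme1 (a nucleoside diphosphate kinase). They were chosen after their values were seen, and their 250 bases upstream of the start are printed with the E-box in capitals. Nop2 read 1003 at 72 h, against 2309, 2574, 3227 and 4337 at 48 h (-1.55), and Nme1 read 445 at 72 h, against 1406, 1001, 920 and 1372 at 48 h (-1.29; a dimmer probe set of Nme1 stayed inside its range).
Nop2, chr6:125131633-125131882, plus strand, GRCm38.p6: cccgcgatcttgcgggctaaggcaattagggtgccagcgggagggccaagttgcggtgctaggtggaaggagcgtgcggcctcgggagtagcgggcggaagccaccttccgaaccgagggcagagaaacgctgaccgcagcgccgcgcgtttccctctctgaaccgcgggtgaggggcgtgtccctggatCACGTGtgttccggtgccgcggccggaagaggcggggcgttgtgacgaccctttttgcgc
Nme1, chr11:93968026-93968275, minus strand, GRCm38.p6: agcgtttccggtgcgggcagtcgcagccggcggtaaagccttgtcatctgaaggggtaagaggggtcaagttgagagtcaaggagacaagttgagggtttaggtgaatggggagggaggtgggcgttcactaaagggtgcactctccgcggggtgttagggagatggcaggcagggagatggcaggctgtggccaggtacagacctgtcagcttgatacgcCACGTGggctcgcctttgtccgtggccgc
A match is a description of these letters and does not show that a factor bound there.

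Genes of the constitutive proteasome and of cytosolic and mitochondrial chaperones were lower as well. Of 30 constitutive proteasome subunits, 28 were below the 48 h range (8 by at least 2-fold), none was above, and the median log2 difference was -0.80. Psmd7, a lid subunit of the regulatory particle, read 2223 at 72 h, against 5279, 8405, 6795 and 8331 at 48 h (-1.65). Psmb6, a catalytic subunit of the core, read 4160 at 72 h, against 8561, 9408, 10628 and 8334 at 48 h (-1.13). The 2 subunits inside the range were Psmb1 and Psmd2. Of 21 cytosolic and mitochondrial chaperones, 14 were below the range (9 by at least 2-fold), none was above, and the median was -0.70. Hspa9, the mitochondrial Hsp70, read 2697 at 72 h, against 9381, 11526, 9926 and 14265 at 48 h (-2.03). Hsp90aa1, the inducible cytosolic Hsp90, read 10991 at 72 h, against 32277, 36349, 41140 and 34551 at 48 h (-1.70), although a second, much dimmer probe set of that gene stayed inside its range. The spread of the 48 h arrays was small beside these differences, with an SD of 0.27 for Hspa9 and 0.15 for Hsp90aa1.

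DNA replication genes were lower and mitotic genes differed less. Of 42 genes of replication and nucleotide supply, 31 were below the 48 h range, 17 by at least 2-fold, and none was above; the median was -0.85. Dtymk, the kinase that makes thymidine diphosphate, read 665 at 72 h, against 3147, 3287, 3541 and 3290 at 48 h (-2.24), although its other probe set had a log2 difference of -0.39. Orc1, the largest subunit of the origin recognition complex, read 157 at 72 h, against 674, 820, 660 and 811 at 48 h (-1.95). Cdc45, a part of the replicative helicase, read 1168 at 72 h, against 3093, 3328, 4034 and 3871 at 48 h (-1.57). All of these 48 h arrays lay close together and far above the 72 h array. Of the MCM helicase subunits on the array, Mcm2, Mcm3, Mcm4, Mcm5 and Mcm7 were below the range, with log2 differences of -1.48 to -1.14, and Mcm6 was inside it. The 44 genes of mitosis and chromosome segregation had a median of -0.20, with 23 below the range and 6 above, none of the lower genes reaching 2-fold. Mki67, a proliferation marker, read 4747 at 72 h, against 6850, 4544, 4209 and 5338 at 48 h, inside the range. Ube2c, which feeds the anaphase-promoting complex, was higher at 72 h, 724 against 250, 340, 470 and 240 at 48 h (1.10). Its probe set also read 454, 1161 and 509 in naive cells, where Mki67 read 121, 97.8 and 68.4. The Ube2c value is therefore not read as more mitosis.

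**Figure D2:**
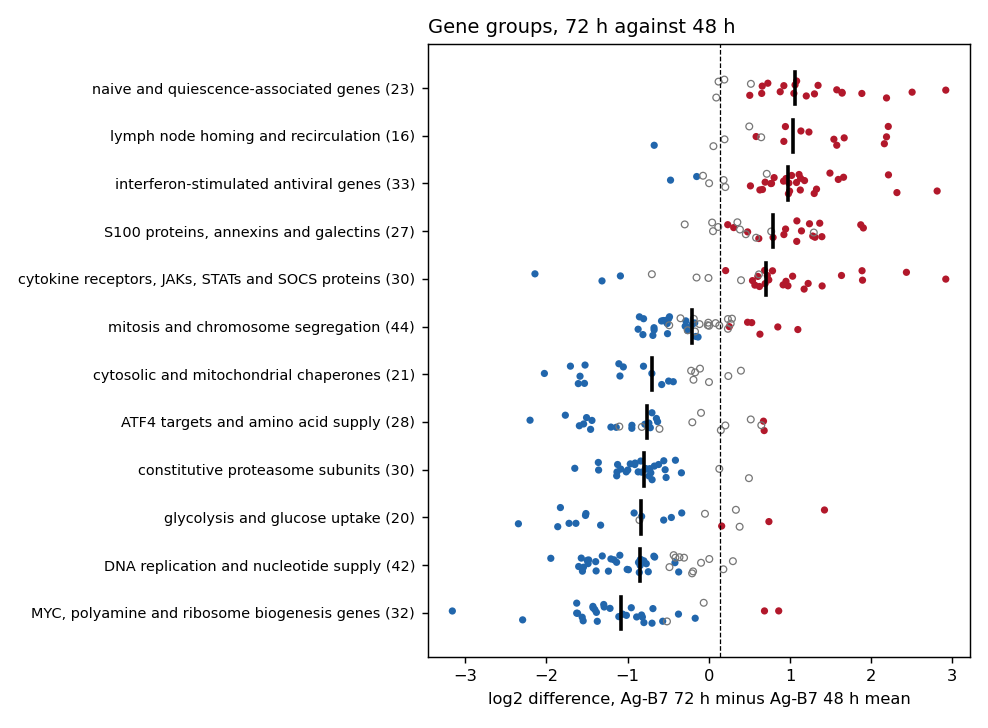
The log2 difference, 72 h minus the 48 h mean, is plotted on the horizontal axis for every member on the array of 12 gene lists, whose sizes are in brackets. Filled points lie outside the range of the 4 arrays at 48 h (red above, blue below), open points inside it, black bars are list medians and the dashed line is the median of all genes (0.13); ribosome biogenesis has the lowest median (-1.08) and the naive and quiescence list the highest (1.06).

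Glucose uptake and glycolysis genes were among the lowest at 72 h. Of 20 on the array, 13 were below the range (8 by at least 2-fold) and 3 above, with a median of -0.84. Hk2, hexokinase 2, which traps glucose in the cell, read 585 at 72 h, against 1689, 4428, 2736 and 4850 at 48 h (-2.35); a second probe set near background did not differ. Slc2a1, the glucose transporter GLUT1, read 755 at 72 h, against 1611, 3183, 3175 and 4130 at 48 h (-1.86). Tpi1, triosephosphate isomerase, read 10239 at 72 h, against 32403, 38654, 40426 and 34949 at 48 h (-1.83). In each case the 72 h array was below the lowest 48 h array, by more than 2-fold even for the lowest. Pgam1, phosphoglycerate mutase, read 6685 at 72 h, against 19682, 25231, 22922 and 21174 at 48 h (-1.72). Pfkl, the liver-type phosphofructokinase, read 3083 at 72 h, against 7956, 10184, 11581 and 9386 at 48 h (-1.64). Smaller differences were found for the pathway enzymes Ldha (-0.92), Pkm (-0.83), Aldoa (-0.46) and Pgk1 (-0.33). The members above the range were Aldoc (1.42), Pfkfb3 (0.74) and Hk1 (0.16, close to the median of all genes). Txnip, which restrains glucose uptake, was higher, 6784 at 72 h against 2918, 1135, 983 and 537 at 48 h (2.50), while its dimmer probe set (0.48) stayed inside the range. Ak4, a mitochondrial adenylate kinase, read 210 at 72 h, against 960, 1380, 1369 and 2388 at 48 h (-2.54), and its other probe set was also below the range (-1.84).

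Genes of amino acid supply went the same way. Of 28 targets of ATF4, the transcription factor of amino acid and stress responses, and related genes, 17 were below the range (9 by at least 2-fold) and 2 above, with a median of -0.76. Shmt1, which feeds one-carbon metabolism from serine, read 532 at 72 h, against 2639, 2076, 2600 and 3286 at 48 h (-2.20). Asns, asparagine synthetase, read 2183 at 72 h, against 3996, 6479, 9486 and 13149 at 48 h (-1.77). Slc7a5, a subunit of the large neutral amino acid transporter, was lower by a log2 difference of -1.51, and Atf4 itself by -1.21. The members above the range were Wars (0.67) and Slc7a11 (0.68). Bcat1, the cytosolic branched-chain aminotransferase, which the list does not hold, read 688 at 72 h, against 2971, 3375, 4050 and 6761 at 48 h (-2.49). Oxidative phosphorylation subunits differed less, with 21 of 37 below the range, 2 of them by at least 2-fold, 3 above and a median of -0.31. For genes of cholesterol and fatty acid synthesis 4 of 21 were above and 4 below, with a median of 0.01 (-0.25 after median centring). The shares of all genes were 33.5% above and 21.2% below.

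Genes of resting T cells were higher at 72 h. Of 23 naive and quiescence-associated genes, 19 were above the 48 h range, 13 by at least 2-fold, and none was below; the median was 1.06 and stayed between 0.75 and 1.11 under the other scalings. Il7r, the IL-7 receptor chain that naive and memory cells use to survive, read 3302 at 72 h, against 310, 675, 336 and 346 at 48 h (2.92). It read 7715, 3934 and 6602 in naive cells and 205 at 24 h. Klf2, the factor that drives lymph node homing receptors, read 1922 at 72 h, against 724, 514, 526 and 94.5 at 48 h (2.19). It read 12461, 5071 and 6006 in naive cells and 50.9 at 24 h. For both genes the 72 h signal was above every 48 h array and below every naive array. The naive arrays stand apart in technical measures, with actin 3'/5' ratios of 1.13 to 2.06 and spike-in means of 10725 to 29754, and the part of this in their levels was not tested. Rasgrp2, an exchange factor that activates integrins through RAP1, read 2994 at 72 h, against 1311, 619, 1000 and 440 at 48 h (1.88). Pdcd4 and Dgka, an inhibitor of translation and a brake on diacylglycerol signalling, were both higher by 1.64. Bcl2, Foxp1, Tob1 and Id3 stayed inside the range.

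Receptors that guide cells between blood and tissue were mostly higher. Of 16 homing genes, 11 were above the range, 8 by at least 2-fold, and 1 (Ccr2, -0.67) was below; the median was 1.04. The lists of this report overlap, so their counts are not separate. Klf2 is in the homing and naive lists, Il7r in the naive and cytokine receptor lists, and Fasl in the cytotoxic and survival lists. Itgb7, the beta 7 integrin chain of the gut-homing integrins, read 21462 at 72 h, against 6882, 6409, 4689 and 2473 at 48 h (2.16). Itgae, its CD103 partner chain, read 341 at 72 h, against 57.4, 16.8, 40.9 and 39.6 at 48 h (2.21). Itga4, the other partner, read 401 at 72 h, against 96.6, 110, 93.2 and 80.1 at 48 h (1.67). That the 72 h array did not overlap the 48 h arrays for these 3 chains is the range rule itself. Itgae at 48 h lay near the pseudocount of 46.4. S1pr1, which lets lymphocytes leave lymph nodes, was higher by 1.58, Cxcr4 by 1.54 and Ccr7, the receptor for entry into lymph nodes, by 0.92.

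Cd7, an immunoglobulin-family receptor of T cells and NK cells, had the largest log2 difference among bright genes, 4.58. Its signal was 4540 at 72 h, against 422, 153, 96.7 and 54.1 at 48 h, and 10323, 5172 and 6770 in naive cells. Other genes with large differences in the same direction were Smpdl3a (a sphingomyelinase-like phosphodiesterase, 3.13), Spock2 (an extracellular matrix proteoglycan, 3.29), H2-Oa (a chain of the class II peptide-loading modulator, known from B cells and thymus, 3.41) and Gsn (gelsolin, which severs actin filaments, 2.75). Spock2 read 970 at 72 h, against 87.1, 69.5, 61.5 and 22.9 at 48 h, and only 104, 226 and 142 in naive cells. Spock2 was thus above both the 48 h and the naive arrays, where Cd7 at 72 h was below the naive arrays.

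**Figure D3:**
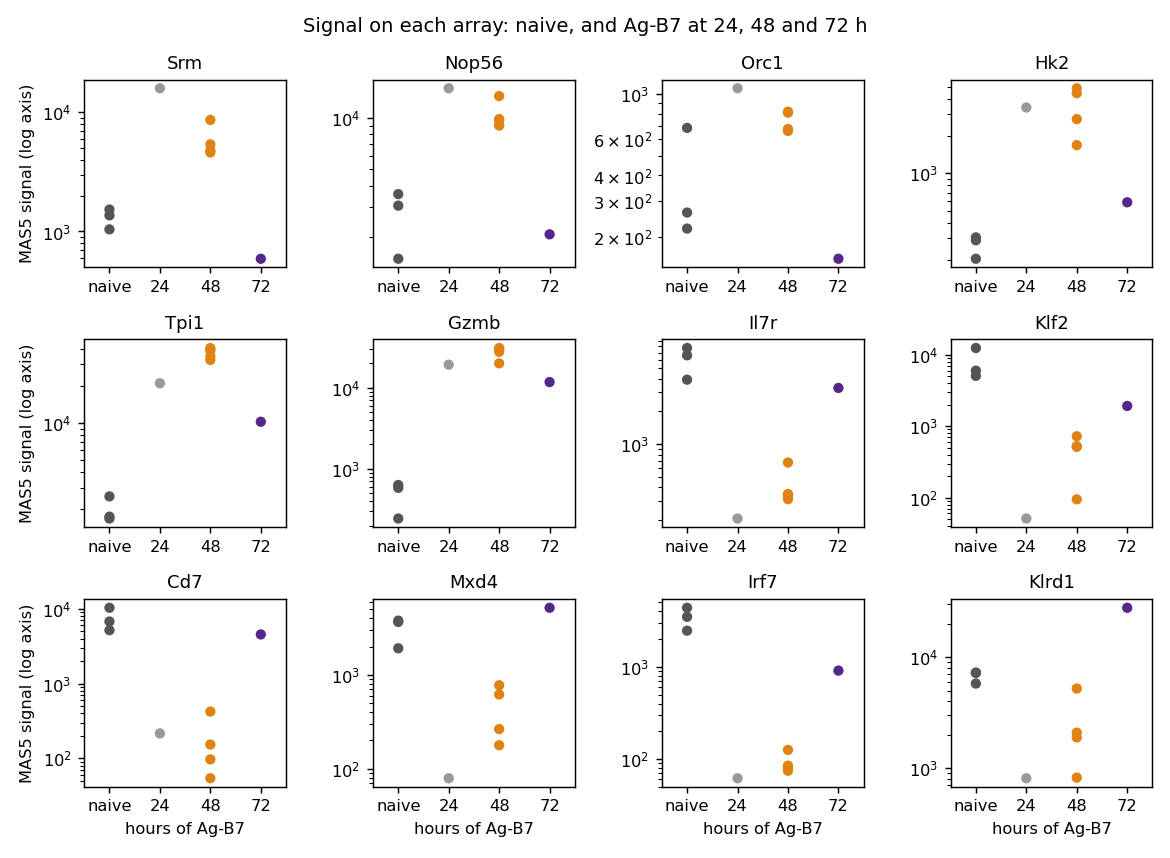
The signal of 12 genes is plotted on a log axis for each array of naive cells (3 arrays) and of Ag-B7 at 24 h (1 array), 48 h (4 arrays) and 72 h (1 array), 1 point per array. Srm, Nop56, Orc1, Hk2, Tpi1 and Gzmb lie below the 48 h points at 72 h, and Il7r, Klf2, Cd7, Mxd4, Irf7 and Klrd1 lie above them.

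Interferon-stimulated genes were higher at 72 h in the cells to which no interferon was added. Of 33 antiviral genes on the array, 26 were above the 48 h range, 14 by at least 2-fold, and 2 (Gbp2 and Ifi35) were below; the median was 0.98, and 0.67 to 0.82 under the other scalings. Irf7, the factor that amplifies type I interferon responses, read 910 at 72 h, against 74.6, 84.6, 126 and 80.1 at 48 h (2.81). It read 4382, 2472 and 3493 in naive cells and 61.7 at 24 h. Usp18, a feedback inhibitor at the interferon receptor, read 269 at 72 h, against 21.4, 34.2, 22.9 and 10.1 at 48 h (2.21). Both were clear of all 48 h arrays at 72 h, and Irf7 was below every naive array. Irf9, a subunit of the transcription factor that interferon activates, read 2423 at 72 h, against 776, 940, 642 and 622 at 48 h (1.66). Ifi27 read 6638 at 72 h, against 923, 2750, 1137 and 964 at 48 h (2.32), and its relative Ifi27l2a read 10069 at 72 h, against 1527, 3462, 888 and 555 at 48 h (2.93); probe sets of such close relatives may not tell them apart. With IFNa/b added, Irf7 read 3463 and Usp18 10005 at 72 h, and with IL-12 they read 285 and 1238. The 72 h signals with Ag-B7 alone were under those with IFNa/b for both genes, and above that with IL-12 for Irf7. The receptor chains Ifnar2 (1.89) and Ifnar1 (1.22) were also above the range.

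The interferon-stimulated response element was searched as GAAANNGAAA on both strands of the same 300-base windows. It was found for 10 of 21 of the antiviral genes above the range that had a window (47.6%), for 13 of 26 of the list with a window whatever their side (50%), and for 3.89% of the named genes. The 21 genes make up most of the 26, so these shares too could hardly differ and do not show whether the element goes with the higher level. Members above the range with the element before the start were ranked in the same way, with the same chromosome left out. Rsad2 (viperin) and Trim30a (a tripartite-motif protein) had the largest differences among them, and they too were chosen after their values were seen. Rsad2 read 161 at 72 h, against 23.7, 145, 38.8 and 14.6 at 48 h (1.18), and Trim30a read 736 at 72 h, against 319, 368, 381 and 208 at 48 h (1.13; a probe set of Trim30a near background did not follow). Replicate 2 at 48 h came close to the 72 h level for Rsad2, which was inside the range after quantile normalization or median centring. The 250 bases upstream of the start are printed with the element in capitals (both genes carry it on the strand opposite to the printed one).
Rsad2, chr12:26456453-26456702, minus strand, GRCm38.p6: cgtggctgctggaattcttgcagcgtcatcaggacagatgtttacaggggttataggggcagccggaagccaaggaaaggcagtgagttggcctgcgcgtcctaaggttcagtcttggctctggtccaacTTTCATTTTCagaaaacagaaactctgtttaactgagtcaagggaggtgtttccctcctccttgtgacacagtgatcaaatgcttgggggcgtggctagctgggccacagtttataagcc
Trim30a, chr7:104465194-104465443, minus strand, GRCm38.p6: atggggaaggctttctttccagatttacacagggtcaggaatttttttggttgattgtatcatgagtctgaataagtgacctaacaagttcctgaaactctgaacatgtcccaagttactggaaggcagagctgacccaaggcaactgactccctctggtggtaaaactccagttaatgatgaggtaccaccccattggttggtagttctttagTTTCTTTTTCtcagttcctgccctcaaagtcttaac

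Receptors and signalling proteins for cytokines were higher in most cases but not in all. Of 30 cytokine receptors, JAKs, STATs and SOCS proteins, 22 were above the range (9 by at least 2-fold) and 3 below, with a median of 0.71. The 3 below, Socs2 (-2.14), Il2ra (-1.32) and Cish (-1.09), are known to be induced by STAT5, which IL-2 activates. Socs2 read 279 at 72 h, against 857, 1789, 1222 and 1985 at 48 h. Il2ra, the high-affinity IL-2 receptor chain, read 288 at 72 h, against 468, 1051, 644 and 1180 at 48 h. Il18r1, a receptor chain for IL-18, read 2032 at 72 h, against 610, 163, 544 and 223 at 48 h (2.43). Ifngr1, the ligand-binding chain for interferon gamma, read 3803 at 72 h, against 1653, 1036, 908 and 611 at 48 h (1.89). Il12rb2, the signalling chain for IL-12, read 2177 at 72 h, against 494, 1261, 773 and 1585 at 48 h (1.17, inside the range after spike-in scaling).

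Effector genes were mixed. Of 17 genes of cytotoxic granules and death ligands, 5 were above the range and 4 below, with a median of 0.07 that became -0.18 after median centring. These counts were near the shares of all genes, 33.5% above and 21.2% below. Gzmb, granzyme B, read 11775 at 72 h, against 20017, 30967, 29806 and 27778 at 48 h (-1.18). Prf1, perforin, read 481 at 72 h, against 250, 856, 720 and 473 at 48 h, and Ifng, interferon gamma, read 237 at 72 h, against 100, 234, 470 and 1171 at 48 h, both inside the range. Fasl, the ligand of the death receptor Fas, read 453 at 72 h, against 162, 149, 196 and 154 at 48 h (1.24), and Fas itself read 548 at 72 h, against 203, 101, 40 and 115 at 48 h (1.98). Klrk1, the activating receptor NKG2D, read 5804 at 72 h, against 2186, 1373, 851 and 245 at 48 h (2.62). Klrd1, CD94, the partner of NKG2 receptors, read 27859 at 72 h, against 5211, 1887, 2085 and 820 at 48 h (3.74). For both receptors the 48 h arrays themselves spread widely, with an SD of 1.26 for Klrk1 and 1.06 for Klrd1 on the log2 scale. That the 72 h signal was above the highest follows from the rule that named both and is no separate check. Of 18 secreted cytokines and chemokines, 5 were above and 2 below and none reached 2-fold outside the range. Lag3, an inhibitory receptor, and Cd44, an adhesion receptor of activated cells, were inside the range. Pdcd1 (0.87) and Ctla4 (0.90), the inhibitory receptors PD-1 and CTLA-4, were above it.

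Of 25 transcription factors of lymphocyte fate, 9 were above the range (4 by at least 2-fold) and 5 below (4 by at least 2-fold), with a median of 0.40. The range counts were near the shares of all genes, 33.5% above and 21.2% below. At 2-fold the shares of all genes were 7.95% and 4.98%. Irf4, which T cell receptor signalling induces, read 1996 at 72 h, against 2351, 10366, 9041 and 15643 at 48 h (-1.92). Batf3 read 560 at 72 h, against 772, 3049, 2214 and 4489 at 48 h (-1.90). For both, replicate 1 at 48 h lay close to the 72 h array and far from the other three. Bcl6, a repressor linked to memory and follicular fates, read 938 at 72 h, against 228, 131, 441 and 193 at 48 h (1.84). Bcl3, a nuclear partner of NF-kB that supports survival, read 836 at 72 h, against 128, 116, 118 and 130 at 48 h (2.38), with a 48 h SD of only 0.06. Eomes, a factor of effector and memory CD8 cells, read 153 at 72 h, against 1242, 146, 257 and 234 at 48 h, just inside the range; under each of the other 3 scalings it was below the range. Tbx21 had no single-symbol probe set here. Tnfrsf9, the costimulatory receptor 4-1BB, read 1238 at 72 h, against 1810, 4487, 2688 and 6724 at 48 h (-1.46), and its dimmer probe set did not follow. Cd27, a costimulatory receptor that naive cells already carry, read 11530 at 72 h, against 7173, 5052, 5338 and 4073 at 48 h (1.11).

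Genes of S100 proteins, annexins and galectins, many of them raised in effector and memory cells, were higher: 17 of 27 were above the range, 10 by at least 2-fold, and none was below, with a median of 0.79. S100a6, a calcium-binding protein, read 1971 at 72 h, against 1020, 482, 752 and 142 at 48 h (1.90), and 190, 138 and 44.9 in naive cells. Ahnak, a large scaffold protein counted with this list, read 6298 at 72 h, against 2118, 1501, 1850 and 1377 at 48 h (1.87), and 682, 96.3 and 476 in naive cells. Lgals3, galectin 3, read 4303 at 72 h, against 3725, 1127, 1541 and 1026 at 48 h (1.39, inside the range after median centring or spike-in scaling), and 11.3, 35.9 and 29.6 in naive cells. These members were far above the naive arrays at 72 h, unlike Il7r, Klf2 and Cd7.

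The cultures with IL-12 or IFNa/b were sampled at the same times and share no array with Ag-B7 alone, so their 72 h minus 48 h differences could be set beside it. By the same rule 38.6% of genes were above and 23.3% below the 48 h range with IL-12 (61.9% outside it), and 35.1% and 25.6% with IFNa/b (60.7% outside it). At 2-fold the shares were 8.46% and 5.1% with IL-12 (13.6% in both directions), and 5.84% and 3.45% with IFNa/b (9.3%). Of the 656 genes at least 2-fold above with Ag-B7 alone, 505 (77.0%) were also above the range with IL-12 and 503 (76.7%) with IFNa/b, and 23 and 24 were below. Of the 411 genes at least 2-fold below, 328 (79.8%) were below with IL-12 and 341 (83.0%) with IFNa/b, and 30 and 11 were above. Both classes thus shared their direction for most genes. Where 2-fold was asked of both cultures, 257 genes were shared with IL-12 (39.2% of the Ag-B7 list and 36.8% of the IL-12 list) and 250 with IFNa/b (38.1% and 51.9%) on the higher side. On the lower side 217 were shared with IL-12 (52.8% and 51.5%) and 154 with IFNa/b (37.5% and 54.0%).

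A test was possible for the mean of both cytokine cultures. In limma, fitted on 13 arrays and 6127 genes, the mean 72 h minus 48 h change of the IL-12 and IFNa/b cultures was called at an adjusted p under 0.05 for 592 genes higher (9.66%) and 652 lower (10.6%). The 72 h arrays are single, so the fit assumes that they vary like the replicated 48 h groups. Its p-values measure only the spread between these samples (which may be technical). They leave out any source that 48 h arrays of different cultures share, and any that the 72 h arrays share. Of the 411 genes 2-fold below with Ag-B7 alone, 399 were in that fit; 279 of them fell in the cytokine cultures and 1 rose. Of the 656 genes 2-fold above, 550 were in the fit; 258 rose and 0 fell, by limma at an adjusted p under 0.05. Ribosome biogenesis fell in the cytokine cultures for 20 of 30 genes tested, the proteasome for 24 of 29, replication for 23 of 40 and chaperones for 12 of 20. Srm fell by 2.75 ± 0.21 (SE, limma adjusted p = 1.42e-05) and Nop56 by 1.93 ± 0.16 (adjusted p = 2.17e-05). Naive and quiescence genes rose for 11 of 22 tested, among them Il7r by 2.07 ± 0.37 (SE, limma adjusted p = 0.00151). Mxd4 rose by 2.74 ± 0.57 (adjusted p = 0.00415) and Cd7 by 3.09 ± 0.55 (adjusted p = 0.00161).

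**Figure D4:**
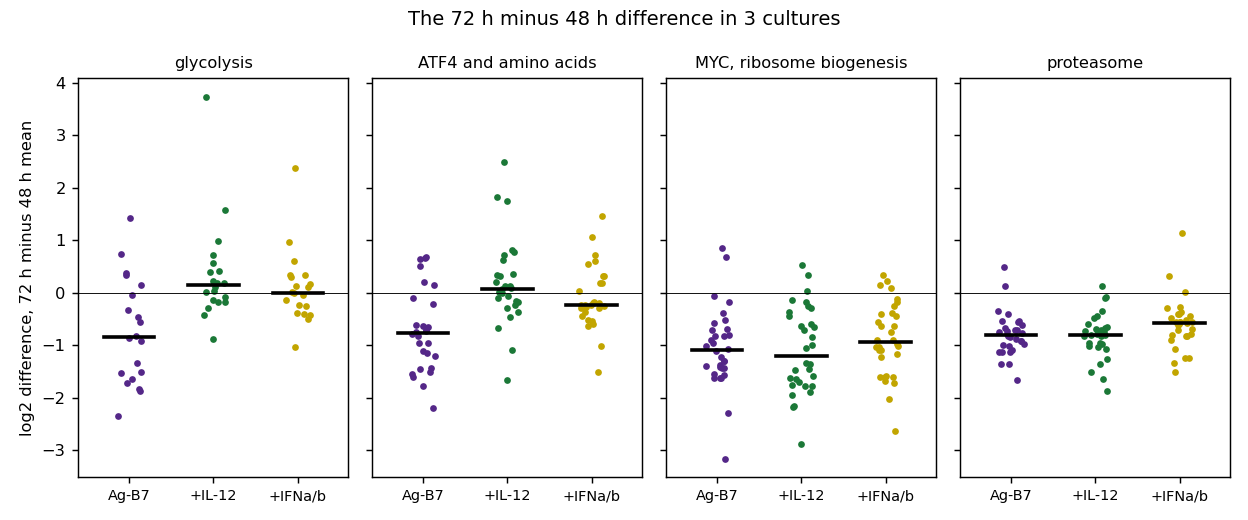
The log2 difference, 72 h minus the 48 h mean, is plotted for each gene of 4 lists in the cultures with Ag-B7 alone, with IL-12 and with IFNa/b, with the list median as a bar. The medians of glycolysis are -0.84, 0.15 and 0.01 and those of the ATF4 list -0.76, 0.08 and -0.23, while ribosome biogenesis (-1.08, -1.20 and -0.94) and the proteasome (-0.80, -0.79 and -0.57) are low in all 3 cultures.

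Glycolysis and the ATF4 list had different medians with Ag-B7 alone and with the cytokines. The median difference of the glycolysis list was -0.84 with Ag-B7 alone, against 0.15 with IL-12 and 0.01 with IFNa/b, and that of the ATF4 list was -0.76, against 0.08 and -0.23. The difference between the Ag-B7 change and the mean cytokine change was tested in the same limma fit, over all 6127 genes. It passed for 4 genes lower (0.0653% of genes) and 0 higher, and at an unadjusted p under 0.05 for 176 lower (2.87%) and 108 higher (1.76%). The genes that passed were Tpi1 (-1.65 ± 0.24 SE, limma adjusted p = 0.0295), Pgam1 (-1.43 ± 0.22, adjusted p = 0.0388), Pfkl (-1.57 ± 0.25, adjusted p = 0.0388) and Chchd10, a mitochondrial intermembrane space protein (-1.72 ± 0.25, adjusted p = 0.0295). Of these 4, 3 are glycolysis enzymes. At an unadjusted p under 0.05 the list had 11 of 20 members lower and 1 higher, and the ATF4 list 11 of 26 lower and 0 higher. These calls were not stable: over 17 alternatives Tpi1 passed in 8, Chchd10 in 7, Pfkl in 6 and Pgam1 in 6, with adjusted p-values from 0.00158 to 0.175. No gene passed without replicate 2, 3 or 4 of Ag-B7 at 48 h, without replicate 3 of the IL-12 culture or without any one replicate of the IFNa/b culture, 2 passed without replicate 1 of the IL-12 culture, and 10 passed without replicate 1 of Ag-B7. The sign of the difference was negative for all 4 genes in every one of the 17. The genes were picked for that difference and the 17 reuse the same 72 h arrays, so the sign could hardly change.

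The arrays behind these differences were as follows. Tpi1 read 40119 at 72 h with IL-12, against 34271, 47046 and 36910 at 48 h, and 28314 at 72 h with IFNa/b, against 37520, 39471 and 35497 at 48 h. Pfkl read 8584 at 72 h with IL-12, against 8637, 10082 and 9625 at 48 h, and 8534 at 72 h with IFNa/b, against 8873, 8284 and 8574 at 48 h. Chchd10 read 3117 at 72 h with Ag-B7 alone, against 7041, 9205, 7660 and 7931 at 48 h, while it read 8664 at 72 h with IL-12 and 10648 with IFNa/b. The 72 h signals with Ag-B7 alone (10239 for Tpi1 and 3083 for Pfkl) were under all of these. Slc2a1 read 5652 at 72 h with IL-12 and 3528 with IFNa/b, against 755 with Ag-B7 alone, and its difference of -2.05 ± 0.48 did not pass (limma adjusted p = 0.241). Asns read 11574 at 72 h with IL-12 and 11811 with IFNa/b, against 2183 with Ag-B7 alone (difference -1.89 ± 0.61, adjusted p = 0.833). In the single TSA culture at 72 h, Tpi1 read 10526, Pfkl 3541, Slc2a1 673 and Asns 1332.

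**Figure D5:**
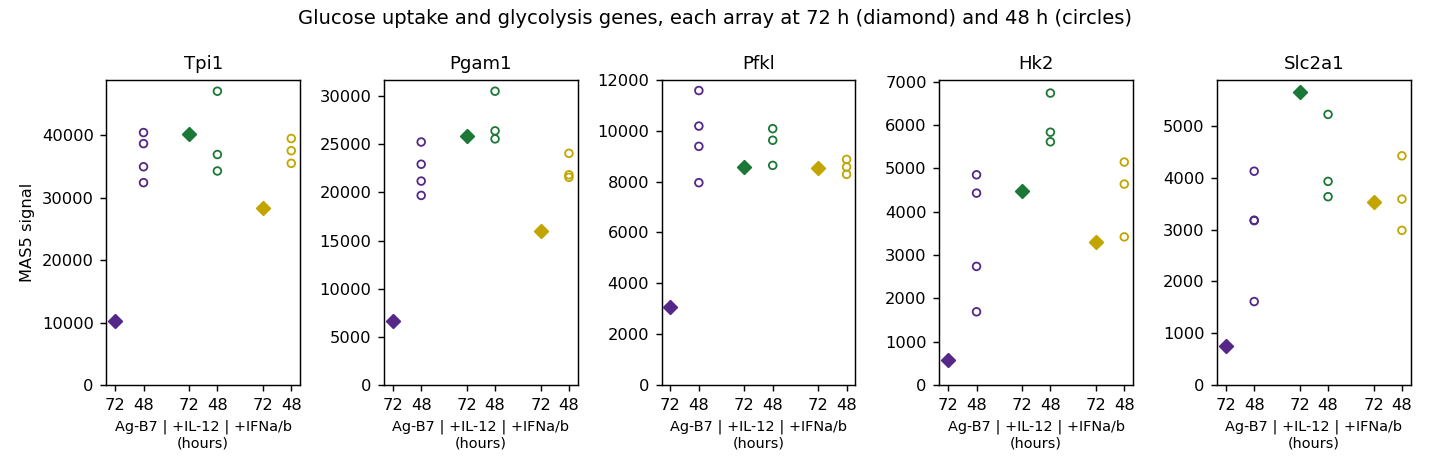
The MAS5 signal of 5 glucose genes is plotted per array on a linear axis from 0, at 72 h (diamond, 1 array) and 48 h (open circles, 4 arrays for Ag-B7 and 3 for each cytokine culture). The 72 h diamond of Ag-B7 alone lies under all 48 h circles in the 5 panels, and the 72 h diamonds with IL-12 and IFNa/b lie above it.

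In the other direction no gene passed the test of the difference. The interferon-stimulated list had a median of 0.98 with Ag-B7 alone, against 0.34 with IL-12 and 0.57 with IFNa/b, and 7 of 32 members were higher in the Ag-B7 difference at an unadjusted p under 0.05, none at an adjusted p. Irf7 differed by 1.56 ± 0.61 (limma adjusted p = 0.886) and Usp18 by 1.66 ± 0.66 (adjusted p = 0.905). Naive and quiescence genes had medians of 1.06 with Ag-B7 alone, 0.64 with IL-12 and 0.82 with IFNa/b. Bcl3 differed by 1.70 ± 0.64 (adjusted p = 0.867). Chpf, a chondroitin-polymerising factor, stayed inside the range with Ag-B7 alone, 1153 at 72 h against 1019, 1154, 873 and 1194 at 48 h. It read 270 at 72 h with IL-12 and 338 with IFNa/b, and its difference of 1.89 ± 0.32 had a limma adjusted p of 0.0505.

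Markers of other cell types were summed over each list. Beside the counts below, 33.5% of all genes were above the 48 h range and 21.2% below it. Of 16 myeloid and dendritic genes on the array, 8 were above the 48 h range (5 by at least 2-fold) and none below, and their summed signal was 10270 at 72 h and 2701 to 5398 at 48 h. Ctss, cathepsin S, made up most of it and read 6636 at 72 h, against 3894, 1649, 2070 and 2584 at 48 h, with 10838, 7222 and 8399 in naive cells. It was not the only member 2-fold above. Cd68 read 933 at 72 h, against 195, 122, 469 and 291 at 48 h, though a probe set near background did not follow. C1qb read 320 at 72 h, against 134, 23.7, 95.7 and 159 at 48 h. The remaining 8 members were inside the range. Of 11 B cell genes, 4 were above and none below, with a summed signal of 17592 at 72 h and 6860 to 13141 at 48 h, most of it Ighm (14373 at 72 h, against 9438, 9284, 6241 and 3937 at 48 h). Ighv14-2, an immunoglobulin heavy chain variable gene outside that list, was among the 15 bright genes farthest above the range, with 1057 at 72 h, against 140, 220, 21.7 and 49.8 at 48 h (3.04), and its other 2 probe sets were above their ranges too. H2-Oa read 3303 at 72 h, against 561, 546, 144 and 98.2 at 48 h. Of 5 NK cell genes, 2 were above and 1 below, with sums of 624 at 72 h and 267 to 537 at 48 h. The 11 stromal genes summed to 3979 at 72 h and 2373 to 4036 at 48 h, and the 5 erythroid genes to 717 at 72 h and 641 to 1087 at 48 h. The 6 markers of CD4 and gamma-delta T cells summed to 7261 at 72 h and 3449 to 6244 at 48 h, with Cd4 itself inside the range (504 at 72 h, against 73.6, 170, 508 and 272 at 48 h). Their part in the higher naive, receptor and antiviral genes was not tested.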

How the data were processed

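Each of the 20 deposited arrays holds 12488 intensity values, which the submitters' processing notes credit to MAS5, with no version in the sources used here. Each deposited array had a trimmed mean near 1000.7, so differences are relative to total labelled RNA. Gene names came from the platform's annotation (10833 probe sets with 1 symbol, 396 with several; 8251 genes), and for 2073 genes the brightest probe set stood for the gene. The pseudocount 46.4 was the median over arrays of the 20th percentile. limma 3.58.1 (R 4.3.3) fitted 6127 genes above the 40th percentile on at least 3 of 13 arrays of the 3 cultures at 48 h and 72 h, with 7 residual and 6.51 prior degrees of freedom, a median residual SD of 0.302 and Benjamini-Hochberg adjustment; it was tested on simulated data. Named genes were the 15 highest and 15 lowest bright genes outside the range, up to 4 per list, 22 chosen by name and the 5 smallest p-values of each contrast. The members and the gene lists (687 of 874 theme genes on the array) were chosen with earlier results of these data known. Alternatives were other normalizations, pseudocounts, filters, probe sets, a replicate block and leaving out arrays. No coordinates other than those of the RefSeq promoter windows (GRCm38.p6) were used.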

Additional observations from a re-analysis of the deposited data

Results flagged for a closer look

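Among 98 genes checked for a 48 h array that stands far from the other three, 4 were found, and chance finds about 1 in 20. The gap to the nearest array, as a share of the 48 h range, was 0.832 for Nhp2 (replicate 3, 8967, the lowest), 0.953 for Tk1, a thymidine salvage kinase (replicate 4, 5248, the lowest; 2106 at 72 h), 0.863 for Il7r (replicate 2, 675, the highest) and 0.899 for Vps37b, a sorting protein (replicate 3, 252, the lowest; 5470 at 72 h), all above Dixon's 95% critical value for 4 arrays. In all 4 genes the 72 h array lay beyond every 48 h array, the distant one included. That follows from the rule that named them, which took genes outside the 48 h range, and is no separate check. The 72 h minus 48 h change of Ag-B7 alone differed from that of the cytokine cultures in limma for Tpi1 (-1.65), Pgam1 (-1.43), Pfkl (-1.57) and Chchd10 (-1.72), with the limits given beside these values in the results.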

How the results depend on the processing

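The number of genes outside the range was 4235 to 4640 under other normalizations and 5031 to 5579 with 1 array at 48 h left out (2966 to 3675 above, 1904 to 2085 below). Median centring gave 1686 above and 2954 below, and spike-in scaling, chosen after seeing the data, 1305 and 2930. Of genes at least 2-fold away, a pseudocount 4 times as large left 618 (320 above), and asking 2-fold from the nearest array 452 (241 above and 211 below). Median centring gave 359 above and 780 below, spike-in scaling 312 and 878, and leaving out an array 1054 to 1210 (634 to 790 above, 420 to 455 below). The cytokine contrast called 392 genes with spike-in scaling (288 higher, 104 lower), 275 higher with median centring, and 1083 to 1285 with an array left out (497 to 614 higher, 582 to 671 lower). The difference from the cytokine cultures was called for 8 genes with quantile normalization (1 higher, 7 lower), 0 with median centring, 1 lower with spike-in scaling, 0 with no filter, 5 with the smaller pseudocount (1 higher, 4 lower), and 0 to 10 (0 to 1 higher, 0 to 10 lower) with an array left out; at an unadjusted p under 0.05 limma still had 230 to 351 genes in these settings. No paired analysis was possible for 72 h against 48 h because these groups share 1 replicate number; the 48 h arrays of the same number in Ag-B7 and IL-12 deviated together (r = 0.242, 0.219 and 0.209), but those in Ag-B7 and IFNa/b did not (0.0887, -0.00657 and -0.0976). Ag-B7 replicates 2, 3 and 4 deviated with IFNa/b replicates 1, 2 and 3 (0.217, 0.225 and 0.392). This is a hint from the data that arrays of different cultures share a source, which the labels do not give and the fit does not model, so its p-values may be off. With the number as a replicate block, which would not match such sets for IFNa/b, limma called 7 differences, all lower, and 608 higher and 671 lower genes in the cytokine contrast. Of 882 values for 98 genes, 796 moved by less than the spread, 86 moved by more and 0 reversed, and for 12 lists 13 of 108 moved and 0 reversed. The cause of these shifts was not tested. One array at 72 h limits every statement, and dim probe sets near the pseudocount of 46.4 give compressed differences.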

Other observations

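The 4 arrays at 48 h were not equally far from the 72 h array. Replicate 1 was the nearest for 235 of the 656 genes at least 2-fold above (35.8%) and for 137 of the 411 below (33.3%), and replicate 4 for 99 (15.1%) and 64 (15.6%). Replicate 1 also had the highest correlation with the 72 h array (0.947) and replicate 4 the lowest (0.927). Mxd4, Klrd1 and Cd7 followed that order, with 775, 5211 and 422 in replicate 1 and 177, 820 and 54.1 in replicate 4. Among the other 72 h arrays, the array with IFNa/b correlated with Ag-B7 alone at 0.966, that with IL-12 at 0.956 and that with TSA at 0.939.

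Lists of survival and stress genes not described so far were mixed. Beside the counts in this paragraph, 33.5% of all genes were above the range and 21.2% below it. Of 28 survival and death genes, 15 were above the range (5 by at least 2-fold) and 5 below, with a median of 0.31 (-0.01 after scaling to the spike-ins). After median centring 10 were above and 6 below, and after spike-in scaling 8 and 6. Bcl2l11, the death protein BIM, read 6379 at 72 h, against 2591, 2121, 3670 and 3084 at 48 h, and 2 dimmer probe sets did not follow. Of 21 endoplasmic reticulum chaperones, 3 were above and 9 below, with Hspa5 (BiP) at 6637 at 72 h, against 12051, 16063, 12678 and 14889 at 48 h. Txnrd1 and Gsr, which recycle thioredoxin and glutathione, were lower (-1.99 and -1.27), and Mt2, a metallothionein, was higher (1.04). Of 27 ribosomal protein genes, 15 were above the range and 1 below, with a median of 0.23, which became 0.07 after quantile normalization, -0.03 after median centring and -0.09 after scaling to the spike-ins.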
